A study of Mus musculus with 8 samples.

Results

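Metabotropic glutamate receptors are the slow, G protein-coupled receptors for glutamate, and 6 of their genes were read here: Grm2, Grm3, Grm4, Grm5, Grm7 and Grm8. All non-control array probes that carried one of these gene names were taken, which gave 9 probes out of 55681, and 6 gene names out of 34844. Grm5 had 3 probes, Grm4 had 2, and the other members had 1 each. RNA came from medium spiny neurons (MSNs), the inhibitory output cells of the striatum. The cells were sorted from male mice at 4 weeks of age as Venus-positive, propidium iodide-negative cells. All mice carried Scn4b-Venus, a fluorescent reporter of Scn4b, a sodium channel subunit gene active in MSNs. The control group was WT;Scn4b-Venus and the other group was R6/2;Scn4b-Venus, with 4 single-dye arrays each. R6/2 mice carry a transgene with the start of human huntingtin and an expanded CAG repeat, which shortens life, so the line is a fast model of Huntington's disease. No label says whether the 4 samples of a group came from separate mice, so p-values measure the spread between these samples, which may be partly technical.

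The receptors fall into groups by sequence and by the G protein they use. Group I, which holds Grm5, couples to Gq and phospholipase C, releases calcium from stores and is held near the postsynaptic density by Homer scaffolds. Group II, Grm2 and Grm3, and group III, Grm4, Grm6, Grm7 and Grm8, couple to Gi/o and lower cyclic AMP. In the striatum Grm5 is abundant in MSNs, where it drives endocannabinoid-dependent long-term depression. Group II and III receptors are best known there for restraining glutamate and GABA release from terminals.

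The probes of a gene need not read the same transcripts, so the sites of the 5 probes of Grm5 and Grm4 are shown, each with 30 of its 60 bases. Transcript bases are read from the probe start given in the files, which no label defines, and the exon positions below rest on that reading. The capitals mark a stop codon. The other sequences are the first 30 bases of the probe.
Grm5 probe at transcript base 81: tgttcactcactgatccaaggctagccagc
Grm5 probe at transcript base 4285, up to the stop codon: gattacacgcagagttcttcatcgttgTGA
Grm5 probe at transcript base 7531: attgtataatggctctgctgcagtctgtga
Grm4 probe at transcript base 2472: tgagaccttcaatgaggccaagcccatcgg
Grm4 probe at transcript base 2899: gttgggagcaggcacgagggagcccctgca
On the mouse build mm9 the Grm5 probes lie on the plus strand at chr7:94732759-94732818, chr7:95279335-95279394 and chr7:95282581-95282640. The middle probe, A_55_P2112464, runs over the end of the coding sequence, with 42 bases before the stop codon. The last probe, A_55_P2033425, lies 3246 bases further on in the transcript and 3246 bases further on in the genome. On that reading no intron separates them, and the last probe would lie in the 3′ untranslated region of the same exon. The first probe, A_55_P2316783, lies 546576 genomic bases before the middle one, and its position is given on another transcript, so no distance between these probes within a transcript is given. Both Grm4 probes lie on the minus strand. The upstream one, A_55_P2073682, is at chr17:27571527-27571586 and the downstream one, A_55_P2010376, at chr17:27559349-27559408. They are 427 bases apart by their transcript positions and 12178 in the genome, so on the same reading intron sequence lies between them.

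Between 50.2% and 78.8% of the probes were well above background on each array, with the lowest share on control replicate 1, and 41416 probes that passed on at least 4 of the 8 arrays were tested with limma. Levels are given as log2 of the intensity relative to the 75th percentile of the array, and differences are R6/2 minus control. After Benjamini-Hochberg adjustment over all tested probes, 1 probe passed 0.05 (0.00241%), and it belonged to no member. The sort label was checked against 25 MSN markers, and all 25 were above background and tested, with a mean level of 4.79 to 5.05 on control arrays. The same mean was 4.18 to 4.51 on R6/2 arrays, so the groups did not overlap. All 25 MSN marker differences were negative, with a median of -0.54, against 46% negative and a median of 0.03 over all genes. By limma 0 of these markers passed adjustment, while 13 were lower at an unadjusted p under 0.05 by limma and 15 by the methods' t-test, the one that the authors' table names. At that unadjusted level limma had 3.2% of all genes lower and 3.4% higher. In sorted bulk RNA, fewer MSNs in a sample and less RNA per MSN cannot be told apart, and the part of this shift in the receptor values was not tested.

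All 9 member probes were tested, and 8 of them were well above background on all 8 arrays. The exception was Grm8. The R6/2 mean was lower at 8 probes and higher at 1, with a median difference of -0.27, against 44.5% negative and a median of 0.05 over all tested probes. By limma 0 of the 9 passed adjustment. At an unadjusted p under 0.05, 3 were lower and none higher, by limma and by the methods' t-test alike, where 3.05% of all tested probes were lower and 3.97% higher by limma. The count of 3 became 1 without control replicate 4, without R6/2 replicate 1, without R6/2 replicate 4 or with replicate number as a block. It became 2 without R6/2 replicate 2 or with quantile normalization, and 4 without control replicate 2. The groups did not overlap at 2 probes, 1 of Grm5 and 1 of Grm4, both with the lower values in R6/2, against 2.26% of all tested probes lower without overlap and 2.3% higher. These counts rest on 9 probes of 6 genes, and the probes of a gene share its RNA.

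**Figure D1:**
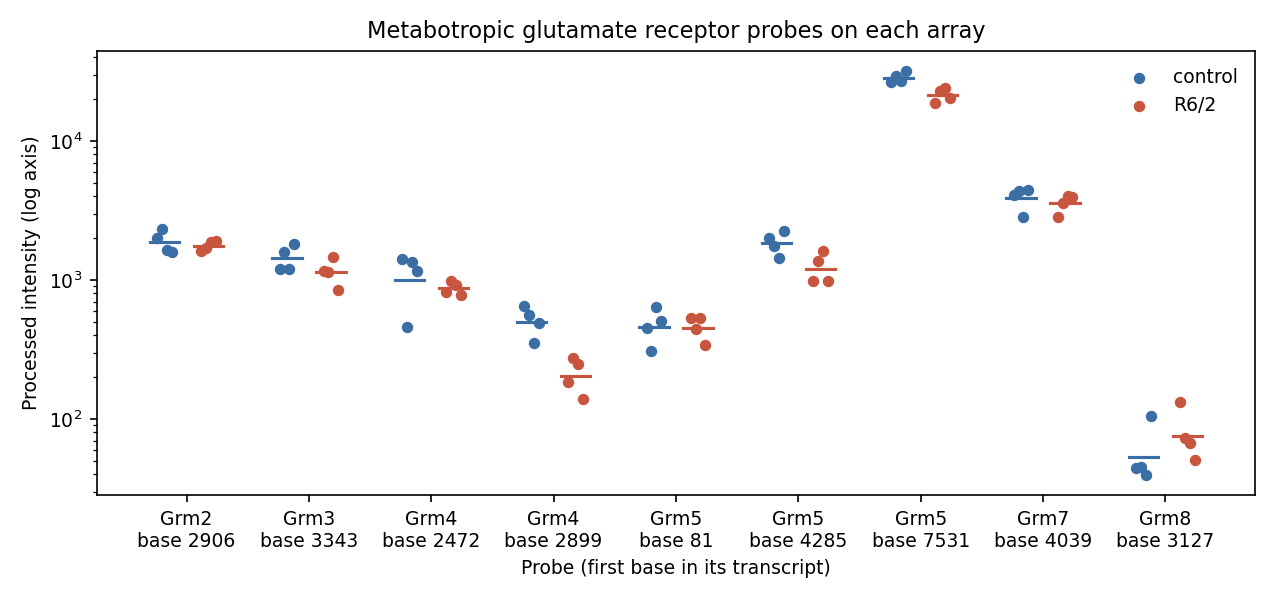
Intensity of each receptor probe (log axis) in control and R6/2 MSNs. Each dot is 1 array, with 4 per group, and the bar is the geometric mean of the group. The R6/2 dots lie below all control dots at the Grm5 probe at base 7531 and the Grm4 probe at base 2899, and the groups overlap at the other 7 probes.

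Grm5, the Gq-coupled receptor of MSN spines, had 3 probes. At the last probe, the intensities were 26408, 29524, 26948 and 31887 on the control arrays and 18798, 22796, 24083 and 20323 on the R6/2 arrays. All 4 R6/2 values lay below all 4 control values. The scaled log2 level was 6.38 ± 0.14 (SD, n = 4) in controls and 5.91 ± 0.13 (SD, n = 4) in R6/2, a difference of -0.48 (SE 0.18, 95% interval -0.89 to -0.07), or 28.3% lower. In limma this gave an unadjusted p of 0.0275 and an adjusted p of 0.681, so the difference did not pass. The authors' deposited table gives the same probe a fold of 1.40 down with a p of 0.00223 and a corrected p of 0.675.

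At the probe over the Grm5 stop codon, intensities were 2013, 1762, 1438 and 2234 on control arrays and 981, 1362, 1615 and 988 on R6/2 arrays. Here 3 of the 4 R6/2 arrays were below all controls, and R6/2 replicate 3 lay within the control range. The level was 2.42 ± 0.26 (SD, n = 4) against 1.76 ± 0.33 (SD, n = 4), a difference of -0.66 (SE 0.24, limma adjusted p = 0.664), or 36.9% lower. The 95% interval, -1.21 to -0.12, held the estimate from the last probe. The authors' deposited table lists this probe at 1.59-fold down, with a p of 0.0186 before correction.

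The Grm5 probe near the 5′ end read 453, 309, 639 and 505 on control arrays and 531, 444, 531 and 343 on R6/2 arrays. These groups overlapped. The difference was -0.08 (SE 0.30, 95% interval -0.76 to 0.60, limma adjusted p = 0.969), and it turned to 0.09 with slide as a block or without control replicate 3. This interval holds the estimates of both other Grm5 probes, so a lower level of that size was not detectable here.

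**Figure D2:**
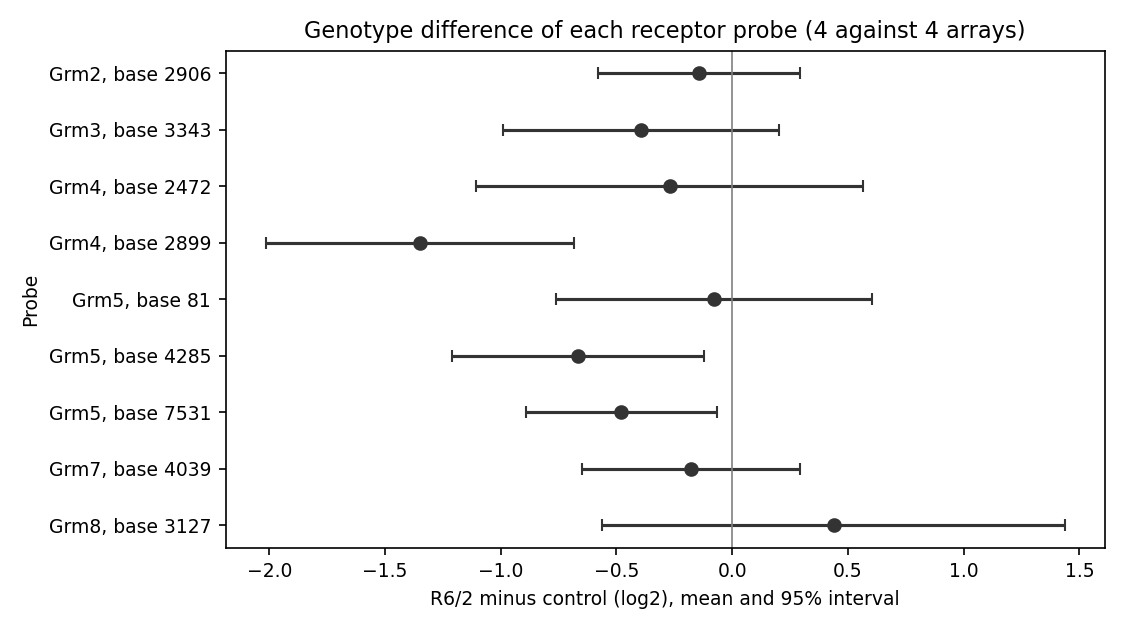
R6/2 minus control difference (log2) for each receptor probe, with the 95% interval from limma as the bar, n = 4 per group. The interval leaves out 0 at the Grm4 probe at base 2899 (-2.02 to -0.68) and at the Grm5 probes at bases 4285 and 7531, all before adjustment.

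Both group II receptors were measured by 1 probe each. Grm2, a Gi/o-coupled autoreceptor of glutamatergic terminals, read 2001, 2312, 1656 and 1600 on control arrays and 1611, 1692, 1864 and 1919 on R6/2 arrays (chr9:106547222-106547281). The groups overlapped. By scaled log2 level R6/2 replicate 2, at 2.21, was just below the lowest control, at 2.23. The other R6/2 arrays were in the lower part of the control range. The difference was -0.14 (SE 0.19, 95% interval -0.58 to 0.29, limma adjusted p = 0.904).

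Grm3, the group II receptor that is also strong in astrocytes, read 1197, 1578, 1209 and 1823 on control arrays and 1162, 1141, 1476 and 847 on R6/2 arrays (chr5:9485369-9485428). The lowest value was R6/2 replicate 4, and the groups overlapped. The level was 2.06 ± 0.31 (SD, n = 4) in controls and 1.67 ± 0.38 (SD, n = 4) in R6/2. The difference of -0.39 (SE 0.26, 95% interval -0.99 to 0.20) had a limma adjusted p of 0.794, and was -0.22 without R6/2 replicate 4. Astrocyte markers, of which 15 of 16 were tested, had a mean level of -2.21 to -1.34 on control arrays and -2.17 to -1.56 on R6/2 arrays, with a median difference of 0.04.

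Grm4, a group III receptor that damps transmitter release, gave the largest difference of the 9 probes at its downstream site. That probe read 649, 562, 350 and 490 on control arrays and 184, 277, 248 and 140 on R6/2 arrays. Every R6/2 value lay below every control value. The level was 0.55 ± 0.35 (SD, n = 4) in controls and -0.80 ± 0.46 (SD, n = 4) in R6/2, a difference of -1.35 (SE 0.29, 95% interval -2.02 to -0.68), or 60.7% lower. In limma the unadjusted p was 0.00147 and the adjusted p 0.486, so it did not pass. The authors' deposited table lists it at 2.55-fold down, with a p of 0.00342 and a corrected p of 0.710.

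The upstream Grm4 probe read 1414, 460, 1354 and 1162 on control arrays and 816, 978, 920 and 779 on R6/2 arrays. Control replicate 2, at 460, was below all R6/2 arrays, and the other 3 controls were above all of them. With it, the difference was -0.27 (SE 0.37, 95% interval -1.11 to 0.57, limma adjusted p = 0.906). Without control replicate 2 the difference was -0.65, with a limma p of 0.0131 before and 0.605 after adjustment. It was -0.12 without control replicate 1 and -0.11 without control replicate 3. Control replicate 2 also had the highest mean level of 11 oligodendrocyte markers, 1.45 against -0.12 in the next control array, and -1.82 to -0.85 on R6/2 arrays. The part of those cells in the Grm4 values was not tested, and the downstream Grm4 probe was not low on that array.

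Grm7, a group III receptor of low glutamate affinity found at presynaptic active zones, read 4084, 4358, 2845 and 4450 on control arrays and 2858, 3607, 4009 and 3947 on R6/2 arrays (chr6:111517083-111517142). All R6/2 values lay within the control range. The difference was -0.18 (SE 0.21, 95% interval -0.65 to 0.29, limma adjusted p = 0.888).

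Grm8, the remaining group III member, was dim and was the only one with a higher R6/2 mean. It read 44.4, 44.8, 39.5 and 106 on control arrays and 132, 73.2, 67.7 and 50.5 on R6/2 arrays (chr6:27225612-27225671), and 3 of 4 control and 4 of 4 R6/2 arrays were well above background. Control replicate 4 was above 3 of the R6/2 arrays, while the other 3 controls were below all of them. The difference was 0.44 (SE 0.44, 95% interval -0.56 to 1.44, limma adjusted p = 0.867), 0.77 without control replicate 4 and 0.11 without R6/2 replicate 1. Grm6, the group III receptor of retinal bipolar cells, was well above background on 0 of 8 arrays and was not tested.

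Since the probes of Grm5 and of Grm4 gave unequal differences, the log2 ratio of each pair of probes was taken within each array, a comparison chosen after the values had been seen. For Grm4 the ratio of the downstream to the upstream probe was -1.01 ± 0.94 (SD, n = 4) in controls and -2.09 ± 0.30 (SD, n = 4) in R6/2. That shift of -1.08 had an exact two-sided permutation p of 0.0857, or 0.229 after adjustment over the 4 pairs, and was -0.65 without control replicate 2. For Grm5 the last probe over the first shifted by -0.40 (exact permutation p = 0.257) and the middle over the first by -0.59 (exact permutation p = 0.114). The last over the middle shifted by 0.19 (exact permutation p = 0.257). The smallest p this design allows is 0.0286, and none of the pairs was shown to differ between genotypes.

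**Figure D3:**
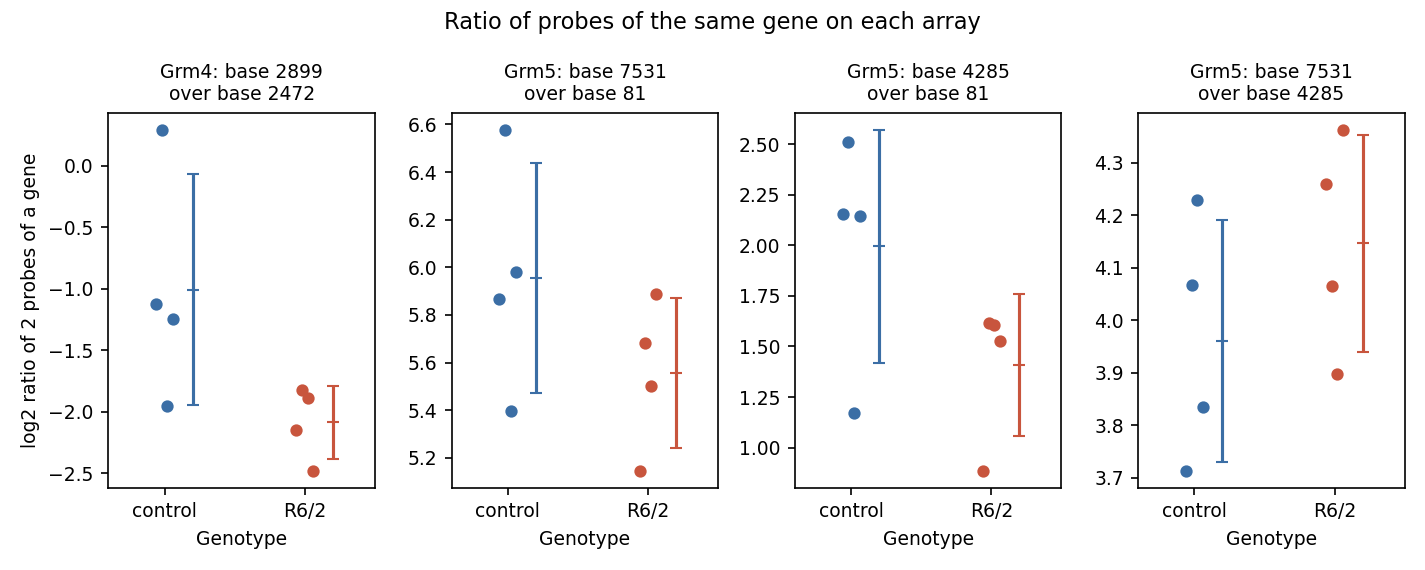
Log2 ratio between 2 probes of the same gene within each array, for 1 pair of Grm4 and 3 pairs of Grm5. Dots are arrays and bars are the mean ± SD (n = 4 per group). Control replicate 2 stands above the other arrays in the Grm4 pair, and the groups overlap in every pair, of Grm4 and of Grm5.

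The genes that work with these receptors were read in 6 lists by role, with 1 probe a gene. Of 96 tested genes, 61 had a lower R6/2 mean and 35 a higher one, with a median difference of -0.17 against 0.03 over all genes. Over all genes 46% had a lower R6/2 mean, the share to set beside the list counts below. By limma 0 of the 96 passed adjustment, against 0.00371% of all genes. At an unadjusted p under 0.05, 11 were lower and 2 higher by limma, and 15 lower and 1 higher by the methods' t-test, where limma had 3.2% of all genes lower and 3.4% higher. The 2 higher genes became 0 without control replicate 3 or without R6/2 replicate 3. The groups did not overlap at 13 lower genes and 1 higher gene, against 2.57% and 2.14% of all genes. Of these genes 4 are also on the MSN marker list.

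In the group I pathway, 11 of 15 tested genes of the Gq and phospholipase C arm had a lower R6/2 mean, with a list median of -0.43. By limma 3 of the 15 were lower at an unadjusted p under 0.05, against 3.2% of all genes. At that level the desensitisation list below had 3 of 17 lower, and the depression and translation list 3 of 18. The Homer and postsynaptic list had 1 of 20 lower, and the trans-synaptic and clearance list 0 of 9. In the Gi/o arm 1 of 17 was lower and 2 were higher. Gnaq, the G protein subunit itself, differed by -0.06, and Plcb1, the phospholipase it activates, by -0.54 (limma adjusted p = 0.733). Itpr1, the calcium channel of intracellular stores, read 7753, 5606, 5042 and 7178 on control arrays and 3369, 3220, 4728 and 3175 on R6/2 arrays. Those groups did not overlap, and the difference was -0.88 (SE 0.23, limma adjusted p = 0.562). The protein kinase C genes Prkcb and Prkca differed by -0.58 and -0.50.

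Among Homer and other postsynaptic partners, 15 of 20 were lower in mean, with a median of -0.17. Homer1, the scaffold that binds the Grm5 tail, had 5 probes with differences from -1.18 to -0.40. At 4 of these the groups did not overlap, with R6/2 lower, against 2.26% of all tested probes. The 5 probes share the RNA of this gene. The probe that stood for the gene was the one at -0.40 (limma adjusted p = 0.797). Cyfip2 differed by -0.50 and Homer3 by -0.42, while the other Homer3 probe gave 0.20. The scaffold Shank1 differed by 0.71, with its 4 probes running from -0.32 to 0.73.

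In the Gi/o arm, downstream of groups II and III, 7 of 17 were lower and 10 higher, with a median of 0.08. Adcy5, the main adenylyl cyclase of the striatum and also an MSN marker, read 7907, 13044, 9925 and 11703 on control arrays and 6169, 5300, 5560 and 5641 on R6/2 arrays. The difference was -0.95 (SE 0.23, limma adjusted p = 0.553), with no overlap. Gng3, a G protein gamma subunit, differed by 0.59 with all 4 R6/2 arrays above all controls. The potassium channel gene Kcnj3 differed by 1.26 at one probe and 0.12 at another. Gnao1 differed by -0.44.

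The list for desensitisation, which also holds kinase and phosphatase genes such as Camk2a and Ppp2ca, had 12 of 17 lower, with a median of -0.25. Rgs4, which speeds the inactivation of Gq and Gi/o, differed by -0.70 (SE 0.22, limma adjusted p = 0.632) with no overlap between groups, and its other probe gave -0.97. Rgs14 had an R6/2 to control ratio of 0.499, and Ppp1r1b, the MSN phosphatase inhibitor, differed by -0.54. In the list for receptor-dependent depression and translation, 11 of 18 were lower. Cnr1, a cannabinoid receptor gene measured here in sorted MSNs only, read 2726, 2520, 3211 and 3061 on control arrays and 1195, 1129, 1719 and 1300 on R6/2 arrays. Its difference was -1.18 (SE 0.21, limma adjusted p = 0.395), without overlap, and its other probe gave -1.44. Camk4 differed by -0.77 and Ptpn5, a striatal tyrosine phosphatase, by -0.60.

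Trans-synaptic binding proteins and glutamate clearance genes were split, with 5 of 9 lower. Elfn2, which binds group III receptors across the synapse, differed by -0.57 (SE 0.74), the clearance enzyme gene Glul by 0.53 and Flrt3 by -0.24. Slc17a8 differed by 0.63 but was dim, and its groups overlapped. It read 60.3, 61.7, 44.9 and 50.9 on control arrays and 49.6, 189, 65.2 and 94.0 on R6/2 arrays. Elfn1, the partner of Grm7 in interneurons, was well above background on 0 arrays, as was the vesicular transporter gene Slc17a6. Slc17a7, which marks cortical glutamatergic neurons, was so on 0 control arrays and 1 R6/2 array.

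**Figure D4:**
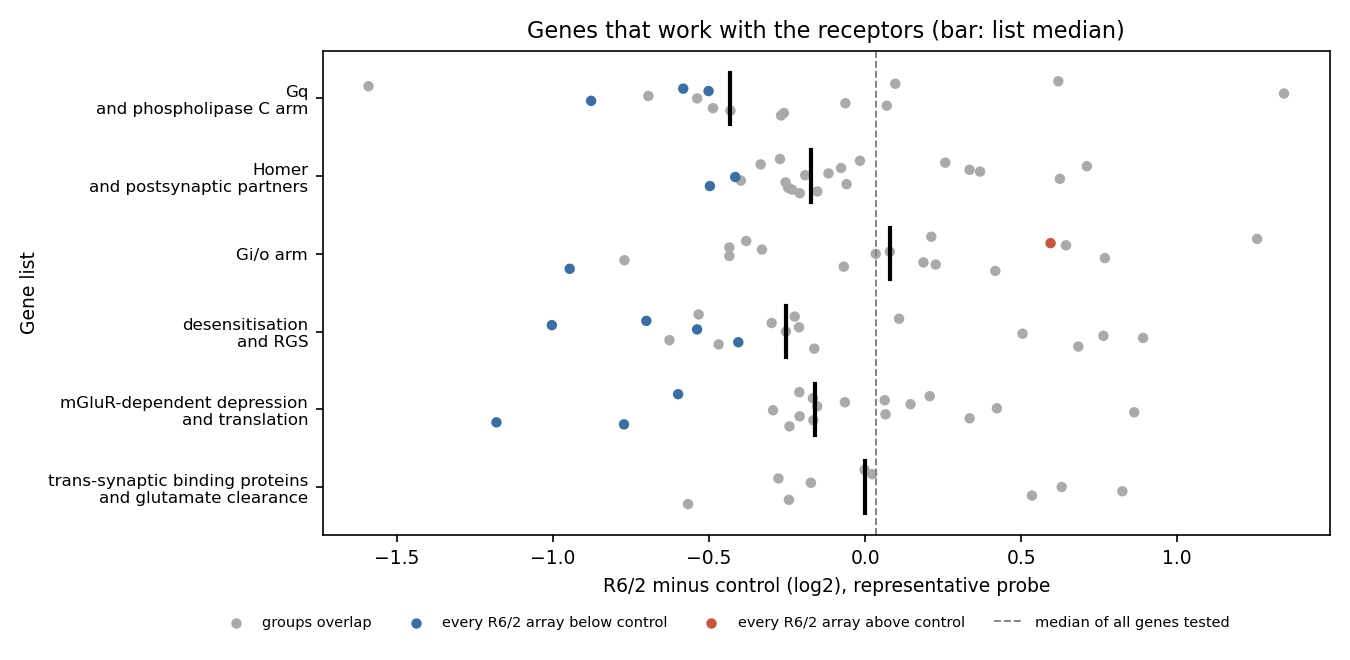
R6/2 minus control differences (log2) of the tested partner genes in each list. Each dot is 1 gene by its representative probe, the black bar is the median of the list and the dashed line is the median of all genes tested, 0.03. Medians run from -0.43 in the Gq and phospholipase C arm to 0.08 in the Gi/o arm.

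Genes whose levels went most closely with each member but Grm8, which was not above background on all arrays, were sought over the 8 arrays among 10065 genes above background on all of them. The likeness is a Pearson correlation, given as a description, and arrays of a genotype share that genotype and its group shift. For Grm5 the closest genes were Ngef (r = 0.991, difference -0.57), Rab15 (r = 0.977) and Rcc2 (r = 0.965). For Grm4, by its upstream probe, they were Ccdc125 (r = 0.975), Cdk7 (r = 0.972) and Grik2 (r = 0.972). At that probe control replicate 2 lay far from the other controls, at a log2 level of 0.43 against 1.77 to 2.02. How much of these Grm4 correlations rests on that array was not tested. Grm3 went with Glcci1 (r = 0.973), Atxn7l3b (r = 0.965) and Sgip1 (r = 0.964). Grm2 went with Slc6a8 (r = 0.970), Rpl34-ps1 (r = 0.967) and Fbxo34 (r = 0.963). Among the closest genes to Grm7 were Pds5b (r = 0.949) and Brpf1 (r = 0.948).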

How the data were processed

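Per the file headers, the deposited scanner files hold each spot's intensity, background-subtracted by Feature Extraction 10.7.3.1 and not scaled between arrays, with probe positions on mm9. The authors' deposited table gives log2 values, p-values from an unpaired t-test (the methods' t-test, rerun here on the main values), corrected p-values and fold changes, quoted only by name. In R6/2 replicate 3, 1 garbled line was left out. Intensities were taken to log2, outlier spots dropped, repeat spots averaged and the array's 75th percentile subtracted. Probes well above background on at least 4 of 8 arrays were fitted with limma 3.58.1 (R 4.3.3; lmFit, eBayes, two-sided), which left 41416 probes. Benjamini-Hochberg adjustment ran over all of them, with a threshold of 0.05. The tested probe of highest mean stood for a gene, giving 26982 genes. The arrays' number limits precision, and scripts were tested on simulated data. All members were named, the 3 genes of each list with the smallest p, 8 genes fixed by name, and the 3 genes closest to each member above background on all 8 arrays. Members and lists were chosen with earlier results of these data known. The 22 alternatives covered scaling, background, filters, probes, tests, blocks and single arrays. Some results that this rule covers are not reported here.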

Additional observations from a re-analysis of the deposited data

Results flagged for a closer look

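Each group of 4 arrays was searched for 1 array far from the other 3 by Dixon's ratio. Of 74 groups searched, 5 held such an array, where chance gives about 1 in 20 groups. At the upstream Grm4 probe control replicate 2 had a log2 level of 0.43, against 1.77 to 2.02 on the other controls. At the Grm8 probe control replicate 4 was at -1.69, against -3.08 to -2.93. In the ratio of the middle to the first Grm5 probe R6/2 replicate 1 was at 0.89, against 1.53 to 1.62. For Shank1, a postsynaptic scaffold gene, R6/2 replicate 3 was at 3.83, against 4.32 to 4.39. For Adcy5, the striatal adenylyl cyclase gene, R6/2 replicate 1 was at 4.29, against 3.85 to 3.92.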

How the results depend on the processing

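Of the 9 receptor probes, 0 passed adjustment by limma under the main setting. None of the receptor values tested passed under the 22 alternatives, of which 1 was the methods' t-test and the others limma; 8 probes were tested with the filter on all 8 arrays, and 6 values, 1 a gene, with one probe per gene or probes averaged. The count at an unadjusted p under 0.05 ran from 1 to 4, all lower. The probe count over the whole array moved from 1 to 2 with quantile normalization, 8 with normexp background correction, 7 with the filter on all 8 arrays, 5 with probes averaged per gene and 8 with an intensity trend. It was 0 with the methods' t-test (2796 at an unadjusted p under 0.05), 0 with the replicate block (2753) and 0 with slide as a block (2410), and 0 to 3 with single arrays left out. The downstream Grm4 difference ranged from -1.51 to -1.08 and the last Grm5 probe from -0.58 to -0.39, without a change of sign. The first Grm5 probe was at 0.0906 with slide as a block, and from -0.27 to 0.0906 with single arrays left out. Gnaq was at 0.0324 with slide as a block, and from -0.14 to 0.0324 with arrays left out. The cause was not tested. Slide as a block equals leaving out R6/2 replicate 4, alone on its slide. Same-numbered arrays did not deviate together (correlations from -0.04 to 0.02), so the numbers were not used as pairs. With the replicate block the last Grm5 probe had a limma p of 0.0832 before and 0.766 after adjustment.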
